A study of Mus musculus with 28 samples.

Results

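The sarcomas compared here are 5 tumours of AD mice, whose p53 is dimeric, and 5 tumours of RP mice, whose p53 is monomeric. They were chosen by the genotype label and the sarcoma tag of each title, and make up 10 of the 24 tumours with a copy number table and 10 of the 28 samples of the series. The AD animals were p53 AD/- and the RP animals p53 RP/-, so that every animal carried one altered p53 allele opposite a null allele. The strain background was 50% C57BL6 and 50% BALB/C throughout. Tumours were collected when an animal reached its end point. No wild-type or plain null tumour was included, so the values compare the altered forms with each other. The other samples were 14 thymic lymphomas and 4 ears, and an ear of the same animal was sequenced for AD sarcoma 5 and RP sarcoma 3. The question set by the series is whether tumour genomes differ between animals with the dimeric form and animals with the monomeric form.

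The p53 protein is a transcription factor that binds DNA as a tetramer, a pair of dimers, and activates genes for cell cycle arrest and cell death after DNA damage. A change in the tetramerisation domain can stop assembly at the dimer or at the monomer. Cells that lack p53 function tolerate missegregated chromosomes and amplified segments, and p53 loss is a common event in sarcomas, tumours of connective tissue, muscle or fat.

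Copy number was measured by exome sequencing, which samples the genome at captured, mostly coding, targets. The deposited values are segments, stretches of a chromosome given a single log2 copy ratio over a comparison DNA, with positions on GRCm38. A value of 0 is the level of the comparison DNA, and normal cells in a tumour pull every value towards 0. Each sarcoma had between 205073 and 205076 autosomal markers, the units that carry a measurement, and read depth is unknown. No pair of neighbouring autosomal segments of a sarcoma differed by less than 0.238, so smaller steps within a chromosome are not in these tables. At the T-cell receptor loci, the lowest segment was at -0.5 or below in 14 of 14 thymic lymphomas at Tcra and Tcrb and 13 of 14 at Tcrg. Means over the locus were less low, up to -0.32 at Tcra, -0.26 at Tcrb and 0.08 at Tcrg in lymphomas. The lowest segment was at -0.5 or below in 1 of 10 sarcomas at Tcra and 0 of 10 at Tcrb and Tcrg. That sarcoma was AD sarcoma 5, whose lowest Tcra segment stood at -0.835, with a mean of -0.01 over the locus. Trp53, the engineered gene, stood at 0.05, 0.19, 0.01, 0.12 and 0.03 in AD sarcomas 1 to 5 and at 0.10, 0.10, 0.16, 0.04 and 0.01 in RP sarcomas 1 to 5. These values do not tell the altered allele from the null one. Chromosome X was kept out of every test. It stood at -0.79, -0.92, -0.03, -0.92 and -0.06 in AD sarcomas 1 to 5 and at 0.11, 0.65, 0.01, 0.91 and -0.05 in RP sarcomas 1 to 5. The sex of the animals and of the comparison DNA is not given in the sources used here. Chromosome Y had 6 markers in each AD sarcoma and 215, 6, 215, 35 and 215 in RP sarcomas 1 to 5. Chromosome X had 7169 to 7187 markers in AD sarcomas and 7160 or 7161 in RP sarcomas. Whether both genotypes had the same comparison DNA is not given either, and its part in their differences was not tested.

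The sarcomas carried low, even shifts of whole autosomes more than deep gains or losses. An autosome was counted as shifted where at least 80% of its segmented length stood at 0.1 or above, or at -0.1 or below. This held for 67 of the 190 pairs of a sarcoma and an autosome, 31 upward and 36 downward. The means of shifted autosomes lay between -0.31 and 0.33, which are copy ratios of 0.806 and 1.26. In 57 of the 67, every segment of 100 markers or more was past the level. A mean of 0.3 or beyond occurred in 2 pairs, both in AD sarcoma 3. Chromosomes 7, 14, 15 and 17 made up most upward shifts, and chromosomes 10, 12, 18 and 19 most downward ones.

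The AD sarcomas shared much of this pattern. AD sarcoma 1 had 8 shifted autosomes, chromosomes 5, 7, 14, 15 and 17 upward and 12, 18 and 19 downward. AD sarcoma 2 had 11, with 7, 11, 14, 15 and 17 upward and 1, 3, 10, 12, 13 and 18 downward. AD sarcoma 3 had 15, the most of the 10 tumours, with 4, 5, 7, 14, 15, 16 and 17 upward and 1, 2, 3, 6, 10, 12, 18 and 19 downward. Its chromosome 7 was near evenly raised, with large segments between 0.32 and 0.41, and its chromosome 12 was lowered as a whole, with large segments at -0.32 and -0.31. AD sarcoma 4 had 11, with 5, 7, 11, 14, 15 and 17 upward and 10, 12, 13, 18 and 19 downward. AD sarcoma 5, from an animal whose ear was sequenced, had 0, and only 0.0212% of its autosomal length was at 0.1 or beyond in either direction. Chromosomes 7, 14, 15 and 17 were thus shifted upward, and 12 and 18 downward, in AD sarcomas 1 to 4.

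RP sarcomas had between 0 and 7 shifted autosomes. RP sarcoma 1 had 6, with chromosomes 11, 14, 15 and 17 upward and 3 and 18 downward. RP sarcoma 2 had 7, with 7 and 15 upward and 1, 10, 12, 18 and 19 downward. RP sarcoma 3, the other tumour with a sequenced ear, had 4, with 11 and 15 upward and 10 and 19 downward. RP sarcoma 4 had 5, all downward, chromosomes 10, 12, 13, 18 and 19. RP sarcoma 5 had 0, although 8.20% of its autosomal length was at 0.1 or beyond. No autosome was shifted in every RP sarcoma; chromosome 15 was shifted upward in 3 of the 5, and chromosomes 10, 18 and 19 downward in 3 of the 5 each.

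**Figure D1:**
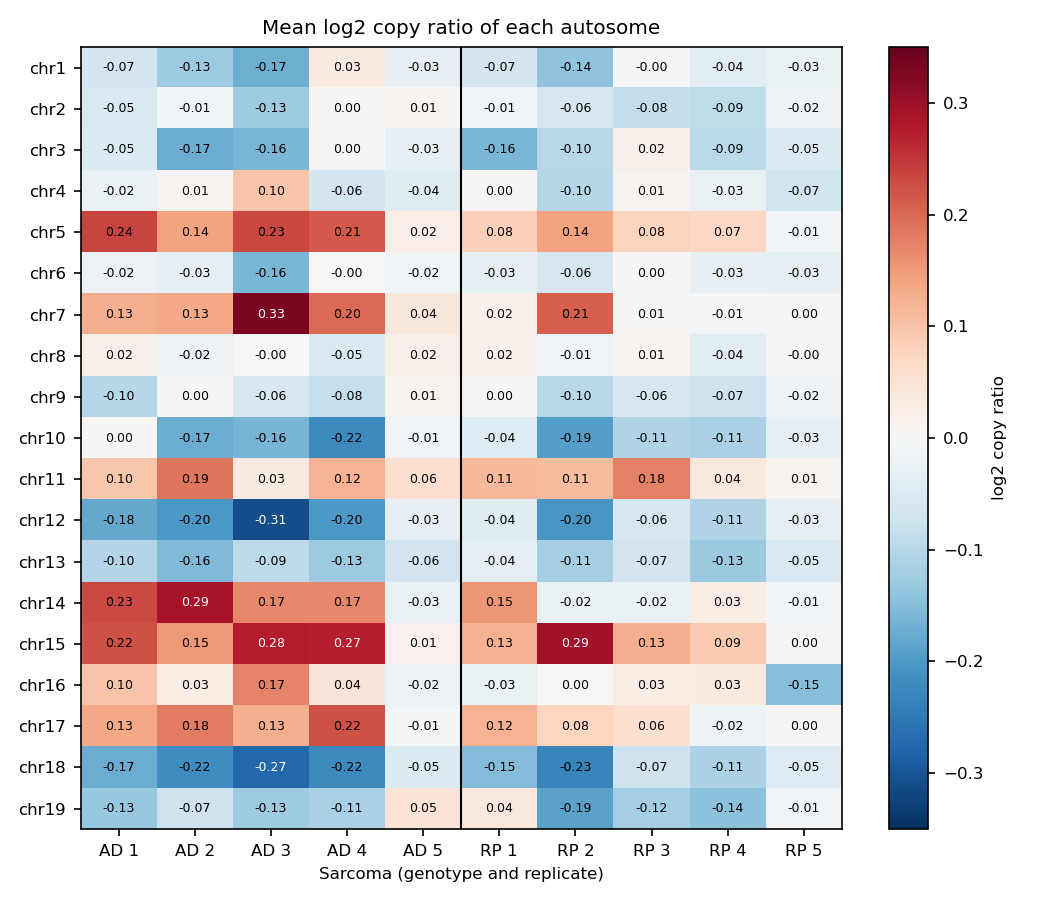
Length-weighted mean log2 copy ratio of each of the 19 autosomes (vertical) in each of the 10 sarcomas (horizontal), with AD tumours left of the black line and RP tumours right of it. Rows for chromosomes 12, 13 and 18 are below 0 and rows for chromosomes 11 and 15 are above 0 in all 10 tumours, while AD 5 and RP 5 stand close to 0 in most rows.

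The number of shifted autosomes was 8, 11, 15, 11 and 0 in AD sarcomas and 6, 7, 4, 5 and 0 in RP sarcomas. AD sarcomas 1 to 4 each had more than any RP sarcoma, and the groups overlap only through AD sarcoma 5. The means were 9 ± 5.61 (SD, n = 5) and 4.4 ± 2.70 (SD, n = 5), a difference of 4.6 that did not pass the two-sided exact permutation test over all splits of the tumours, 5 against 5 (p = 0.159, where 0.00794 is the smallest possible). Without AD sarcoma 5 the difference was 6.85 (exact permutation p = 0.00794). Leaving it out removed the only overlap, so that p is the smallest possible by construction and is no separate support. Without both sarcomas whose ear was sequenced, an alternative chosen after seeing the data, the difference was 6.75 (exact permutation p = 0.0286), and no overlap remained there either. Whether an ear served as the comparison DNA is not given in the sources used here, and its part in these values was not tested.

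The difference in the size of the shifts, which needs no level, did not pass the test either. The mean absolute log2 ratio over the 19 autosomes was 0.11, 0.12, 0.16, 0.12 and 0.03 in AD sarcomas 1 to 5 and 0.07, 0.12, 0.06, 0.07 and 0.03 in RP sarcomas 1 to 5. RP sarcoma 2 stood among the AD tumours, and AD sarcoma 5 and RP sarcoma 5 were the lowest. The means were 0.109 ± 0.049 and 0.069 ± 0.034 (SD, n = 5 each), a difference of 0.040 (exact permutation p = 0.159) that was 0.060 without AD sarcoma 5 (exact permutation p = 0.0317). AD sarcoma 5 had the lowest AD value, so leaving it out raises the AD mean by construction, and that p is no separate support. When any other sarcoma was left out instead, the exact permutation p was 0.087 or higher. The share of autosomal length at 0.1 or beyond was 43.5%, 63.2%, 80.4%, 54.5% and 0.0212% in AD sarcomas and 27.7%, 47.3%, 24.1%, 26.8% and 8.20% in RP sarcomas (exact permutation p = 0.198). AD sarcoma 5 was the lowest and AD sarcoma 3 the highest of all 10.

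Deep alterations covered little of the genome. The altered share, the part of the autosomal length at 0.3 or above or at -0.3 or below, was 0.289%, 0.467%, 12.2%, 1.04% and 0.0117% in AD sarcomas and 0.0801%, 1.83%, 0.714%, 0.114% and 3.14% in RP sarcomas. AD sarcoma 3 had most of the altered length, on chromosomes 7 and 12 as given above, and RP sarcoma 5 came next, with the distal part of chromosome 16. The means were 2.81% ± 5.28 and 1.18% ± 1.31 (SD, n = 5 each), a difference of 1.63 points (exact permutation p = 0.825) that was -0.72 without AD sarcoma 3. The number of autosomal segments, 93 ± 24.6 in AD and 90 ± 23.2 in RP sarcomas (SD, n = 5 each), also overlapped fully (exact permutation p = 0.857).

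**Figure D2:**
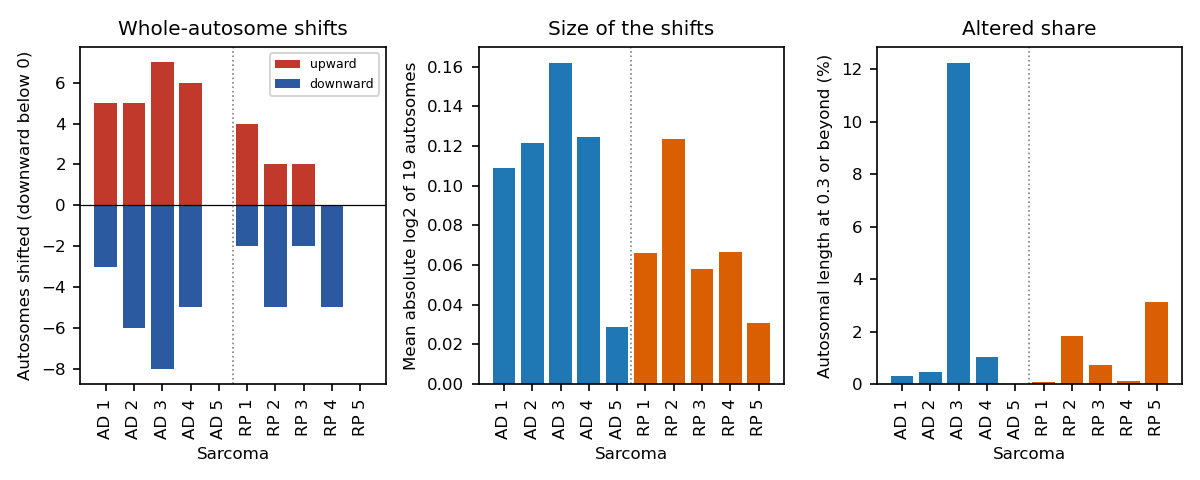
For each of the 10 sarcomas, the number of autosomes shifted upward (above 0) and downward (below 0), the mean absolute log2 copy ratio of the 19 autosomes, and the percent of autosomal length at 0.3 or beyond. Bars are single tumours, AD in blue and RP in orange in the last 2 panels. AD 1 to AD 4 have 8 to 15 shifted autosomes and RP 1 to RP 4 have 4 to 7, with AD 5 and RP 5 at 0.

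The largest shifts pointed the same way in nearly all sarcomas of both genotypes. Chromosome 15, which carries Myc, stood at 0.22, 0.15, 0.28, 0.27 and 0.01 in AD sarcomas 1 to 5 and at 0.13, 0.29, 0.13, 0.09 and 0.0035 in RP sarcomas 1 to 5. It was above 0 in 10 of 10 tumours, with a mean of 0.157 ± 0.105 (SD, n = 10). Chromosome 18 was below 0 in 10 of 10 and stood at -0.154 ± 0.083 (SD, n = 10), from -0.27 in AD sarcoma 3 to -0.05 in RP sarcoma 5. Chromosome 12 was also below 0 in 10 of 10, at -0.137 ± 0.096 (SD, n = 10). Its values were -0.18, -0.20, -0.31, -0.20 and -0.03 in AD sarcomas and -0.04, -0.20, -0.06, -0.11 and -0.03 in RP sarcomas. RP sarcoma 2 stood among AD sarcomas 1 to 4, and the other RP tumours were closer to 0. Chromosome 5 was above 0 in 9 of 10, at 0.122 ± 0.087 (SD, n = 10).

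Thymic lymphomas had some of these directions and not others. Chromosome 18 was below 0 in 14 of 14 lymphomas, at -0.31 ± 0.14 (SD, n = 14), and chromosome 15 above 0 in 13 of 14, at 0.27 ± 0.24. Chromosome 12 was below 0 in 9 of 14 lymphomas, and chromosome 7, above 0 in 9 of 10 sarcomas, was below 0 in 13 of 14. The autosomes also differ in markers per Mb, from 58.6 on chromosome 18 to 139 on chromosome 11. Over the 19 autosomes, the mean of the 10 sarcomas correlated with that density at r = 0.469, and single sarcomas from 0.212 in RP sarcoma 4 to 0.864 in AD sarcoma 5. Autosomes of a tumour share its library and centring, so these are descriptions, and the part of marker density in the shifts was not tested.

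The closeness of tumours within a genotype to each other did not pass the test. The mean absolute difference between the 19 autosome means of 2 tumours was 0.0054 larger between genotypes than within (exact permutation p = 0.397). The mean distance was 0.0917 over pairs of AD sarcomas and 0.0712 over pairs of RP sarcomas, so RP tumours were the closer by this measure and AD tumours by correlation, and neither contrast was tested. The median Pearson r over the 19 autosomes was 0.833 over the 10 pairs of AD sarcomas, 0.581 over the 10 pairs of RP sarcomas and 0.692 over the 25 mixed pairs. The highest r of the 45 pairs, 0.900, was that of AD sarcoma 4 with RP sarcoma 2. Without AD sarcoma 5 the difference in distance was 0.0216 (exact permutation p = 0.0317). AD sarcoma 5 was the farthest tumour from each other AD sarcoma, at 0.0963 to 0.155. Leaving it out therefore lowers the mean AD distance by construction, and that p is no separate support. When any other sarcoma was left out instead, the exact permutation p was 0.14 or higher.

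No autosome separated the genotypes. Of the 19, 0 (0%) passed the exact permutation test after Benjamini-Hochberg adjustment, where the smallest adjusted p was 0.422, and 0 (0%) had an unadjusted p under 0.05. In limma, a linear model that pools the spread over the autosomes, 0 passed and 3 had an unadjusted p under 0.05 (smallest adjusted p = 0.232). Chromosome 14 had the largest difference. It stood at 0.23, 0.29, 0.17, 0.17 and -0.03 in AD sarcomas and at 0.15, -0.02, -0.02, 0.03 and -0.01 in RP sarcomas. AD sarcomas 1 to 4 stood above every RP tumour, and RP sarcoma 1 stood apart from the other RP tumours (AD minus RP 0.140, exact permutation p = 0.079). Chromosome 7 stood at 0.13, 0.13, 0.33, 0.20 and 0.04 in AD sarcomas and at 0.02, 0.21, 0.01, -0.01 and 0.0049 in RP sarcomas. Only RP sarcoma 2 of the RP tumours reached the AD values (difference 0.119, exact permutation p = 0.103). Chromosome 5 stood at 0.24, 0.14, 0.23, 0.21 and 0.02 in AD sarcomas and at 0.08, 0.14, 0.08, 0.07 and -0.01 in RP sarcomas. AD sarcomas 1, 3 and 4 were above all RP tumours (difference 0.097, exact permutation p = 0.071). On chromosome 12 the difference was -0.095 (exact permutation p = 0.167).

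The AD minus RP differences in sarcomas were also set against those in the 7 AD and 7 RP thymic lymphomas, with genotype permuted within tumour type. Of the 19 autosomes, 2 (10.5%) had an unadjusted p under 0.05 and 0 (0%) passed after adjustment. In limma 2 had an unadjusted p under 0.05 and 0 passed. Chromosome 14 had the largest difference between tumour types, 0.140 in sarcomas against -0.315 in lymphomas (exact permutation p = 0.020, adjusted p = 0.262), and chromosome 15 came next, 0.058 against -0.253 (exact permutation p = 0.028, adjusted p = 0.262). Sarcomas and lymphomas share no samples here.

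Among segments of at least 5 markers, focal gains held the highest autosomal values. Those at Kit, Nras, Trp73, Myc, Ccne2, Crkl and Pak2 lay in 1 or 2 sarcomas each. A focal segment had at least 5 markers, was at most 10 Mb long, and stood at 0.5 or above or at -0.5 or below. The number of focal gains was 18, 8, 12, 9 and 2 in AD sarcomas and 7, 12, 12, 6 and 12 in RP sarcomas, 98 in all. A segment counted as shared where it and a segment of the same direction in another tumour, lymphomas included, overlapped by at least 50% of both; 32 gains were not shared in this sense, some of which overlap a longer or shorter gain elsewhere. The groups had the same mean, 9.8 ± 5.85 and 9.8 ± 3.03 (SD, n = 5 each; exact permutation p = 1). Without gains shared with another tumour the means were 3 in AD and 3.4 in RP sarcomas (exact permutation p = 0.944). Focal losses numbered 3, 6, 4, 4 and 0 in AD sarcomas and 4, 4, 0, 7 and 5 in RP sarcomas, with means of 3.4 ± 2.19 and 4 ± 2.55 (exact permutation p = 0.770). Both tumours with 0 focal losses, AD sarcoma 5 and RP sarcoma 3, came from animals whose ear was sequenced. Of the 37 losses, 6 were not shared by the same rule.

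AD sarcoma 1 had high gains on chromosomes 5 and 3. One lay at chr5:75162242-75946818 at 1.39, a copy ratio of 2.61, over 53 markers. It held all of Kit, the receptor of stem cell factor, 76.7% of Pdgfra, the platelet-derived growth factor receptor alpha, and 30.3% of Kdr, a vascular endothelial growth factor receptor. The gain stopped inside Kdr, where 21 markers at chr5:75948750-75978101 stood at 0.20, the level of the rest of the chromosome. It resumed at chr5:76140327-76363554 at 1.43 over Srd5a3, Tmem165, the circadian gene Clock, Pdcl2 and Nmu. Another stretch of chromosome 5, chr5:28071437-28413670, stood at 1.34 and held Insig1, a regulator of sterol synthesis, the homeobox gene En2, Cnpy1 and Rbm33. On chromosome 3 the value climbed in steps to 0.45, 0.79 and 1.11 between 100578475 and 103079028 and then dropped to -0.12. The highest step held Nras, a Ras family GTPase, at a ratio of 2.16. In the other 9 sarcomas Kit stood between 0.01 and 0.21 and Nras between -0.17 and 0.06.

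In AD sarcoma 2 the distal end of chromosome 4 was raised. Segments at chr4:150098757-150643947 and chr4:150897283-156349920 stood at 0.96 and 0.93, against 0.04 in the segment before them. The second held 1089 markers and 98 protein-coding genes, among them Trp73, which encodes a p53 family member, Park7, Tnfrsf9, Per3 and Uts2. AD sarcoma 4 had a lower gain inside it, chr4:152178170-155661105 at 0.42, which also covered Trp73. Trp73 stood at -0.02, 0.93, 0.10, 0.42 and 0.04 in AD sarcomas 1 to 5 and between -0.10 and 0.04 in RP sarcomas. Its AD minus RP difference of 0.294 did not pass (exact permutation p = 0.095, adjusted p = 0.557).

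The AD sarcoma 2 segment also held the Mir200b, Mir200a and Mir429 cluster, a microRNA family known for keeping epithelial cells from taking on mesenchymal features by targeting Zeb1 and Zeb2. They are shown because the whole cluster lay in the gain. In all, 24 gains of at least 0.2 Mb and 10 markers were searched, and 10 microRNA genes lay inside them. The mature 3p sequences are those of RefSeq on GRCm38.p6, 5′ to 3′, with the seed, bases 2 to 8, in capitals. miR-200b-3p and miR-429-3p share a seed, and the seed of miR-200a-3p is a different one.
mmu-miR-200b-3p: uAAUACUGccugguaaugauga
mmu-miR-429-3p: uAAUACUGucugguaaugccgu
mmu-miR-200a-3p: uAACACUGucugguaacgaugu
The 3 hairpins lie on the minus strand, at chr4:156053916-156055742 taken over their mature ends. They are past the end of the AD sarcoma 4 gain, and that tumour stood at -0.01 there.

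The highest focal gains of AD sarcomas 3, 4 and 5 also had a focal segment at the same place in other sarcomas. In AD sarcoma 3 they lay at Crxos (1.20), at a zinc finger cluster of distal chromosome 2 (1.13) and at H2-Q6 and H2-Q7, class I genes of the major histocompatibility complex (0.84). AD sarcoma 4 had the same chromosome 2 cluster at 1.15, Gm2244 on chromosome 14 at 1.06, and a stretch with no gene on chromosome 9 at 0.98. AD sarcoma 5 had 2 focal gains, both with no gene in them, at 1.10 on chromosome 2 and 1.05 on chromosome 9. No listed gene lay in these segments.

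RP sarcoma 2 had high gains at Myc and Ccne2. A segment at chr15:60822962-61989345 stood at 2.22, a ratio of 4.67, and covered 79.8% of Myc, the transcription factor that drives cell growth, with Lratd2 and A1bg. It rested on 11 markers over 1.17 Mb, and the flanking segments stood at 0.24 and 0.26. Myc stood between -0.02 and 0.26 in the other 9 sarcomas. A segment of 10.3 kb and 11 markers, chr4:11192703-11202984, stood at 2.11, a ratio of 4.31, and covered 71.7% of Ccne2, the gene of cyclin E2, and part of Ints8. Ccne2 stood between -0.10 and 0.08 in the other 9 sarcomas. Both segments were found in 1 sarcoma.

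RP sarcomas 3 and 5 had high gains in the same parts of chromosome 16. In RP sarcoma 5 a segment at chr16:17255040-17626429 stood at 3.01, a copy ratio of 8.04 and the highest focal value of the 10 tumours, over 160 markers. It held Crkl, an adaptor protein that links receptor tyrosine kinases to Ras family GTPases, with Hic2, Tmem191c, Pi4ka, Serpind1 and Snap29. The next segment, chr16:17626638-17980564, stood at 2.65 with Smpd4, Ccdc74a, Med15, Klhl22 and Scarf2, and chr16:18620721-19486839 stood at 2.34 with Gp1bb, Septin5, Cldn5, Cdc45 and Ufd1. In RP sarcoma 3, chr16:17452477-17635481 stood at 1.42 over 98.6% of Crkl, and chr16:17638495-17980564 at 1.01. A separate stretch ended at the same marker in both tumours. It was chr16:30366834-32186375 at 1.47 in RP sarcoma 3 and chr16:30957337-32186375 at 1.17 in RP sarcoma 5, and held Pak2, a kinase activated by Rac and Cdc42. Stretches at 0.5 or above in both tumours came to 2.88 Mb and 51 protein-coding genes.

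RP sarcoma 5 also raised a stretch between those at Crkl and Cdc45, chr16:18060709-18587986 at 1.49, with Dgcr8, a partner of the microRNA-processing enzyme Drosha. It holds 4 microRNA genes, shown because no other sarcoma had a focal gain over them. One mature sequence of each, from RefSeq on GRCm38.p6, is given 5′ to 3′ with the seed in capitals.
mmu-miR-6366: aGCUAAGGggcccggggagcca
mmu-miR-1306-3p: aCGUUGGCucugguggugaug
mmu-miR-3618-3p: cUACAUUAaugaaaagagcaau
mmu-miR-185-3p: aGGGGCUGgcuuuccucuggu
The 4 seeds differ from each other and from those of the miR-200 cluster. RP sarcoma 3 stood at 0.33 over most of this stretch.

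Crkl stood at 0.10, 0.06, 0.17, 0.04 and -0.02 in AD sarcomas 1 to 5 and at -0.03, 0.0004, 1.42, 0.20 and 3.01 in RP sarcomas 1 to 5. RP sarcomas 3 and 5 were far above the rest, and RP sarcomas 1 and 2 were below 4 or more AD tumours. The AD minus RP difference was -0.850 (exact permutation p = 0.262, adjusted p = 0.684). Pak2 stood at the values of Crkl in the 8 other tumours, at 1.47 in RP sarcoma 3 and at 1.17 in RP sarcoma 5, with a difference of -0.490 (exact permutation p = 0.262, adjusted p = 0.684). Between genotypes, neither gene differed beyond the spread among RP tumours.

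Beyond these gains chromosome 16 dropped to below 0. From 32233082 to the end it stood at -0.13 in RP sarcoma 3 and -0.36 in RP sarcoma 5, a ratio of 0.780. In RP sarcoma 4 the first 30.2 Mb, chr16:3592397-33803031, stood at 0.20 with no high focal gain over Crkl, and the rest near -0.05. The proximal mean minus the distal mean was 0.541, 0.241 and 0.703 in RP sarcomas 3, 4 and 5 and between 0 and 0.054 in the other 7 sarcomas. The step was noticed in the values, so it has no test. Vgll3, a cofactor of TEAD transcription factors, lies in the distal part and stood at -0.13 and -0.36 in RP sarcomas 3 and 5 and between -0.05 and 0.17 in the others.

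**Figure D3:**
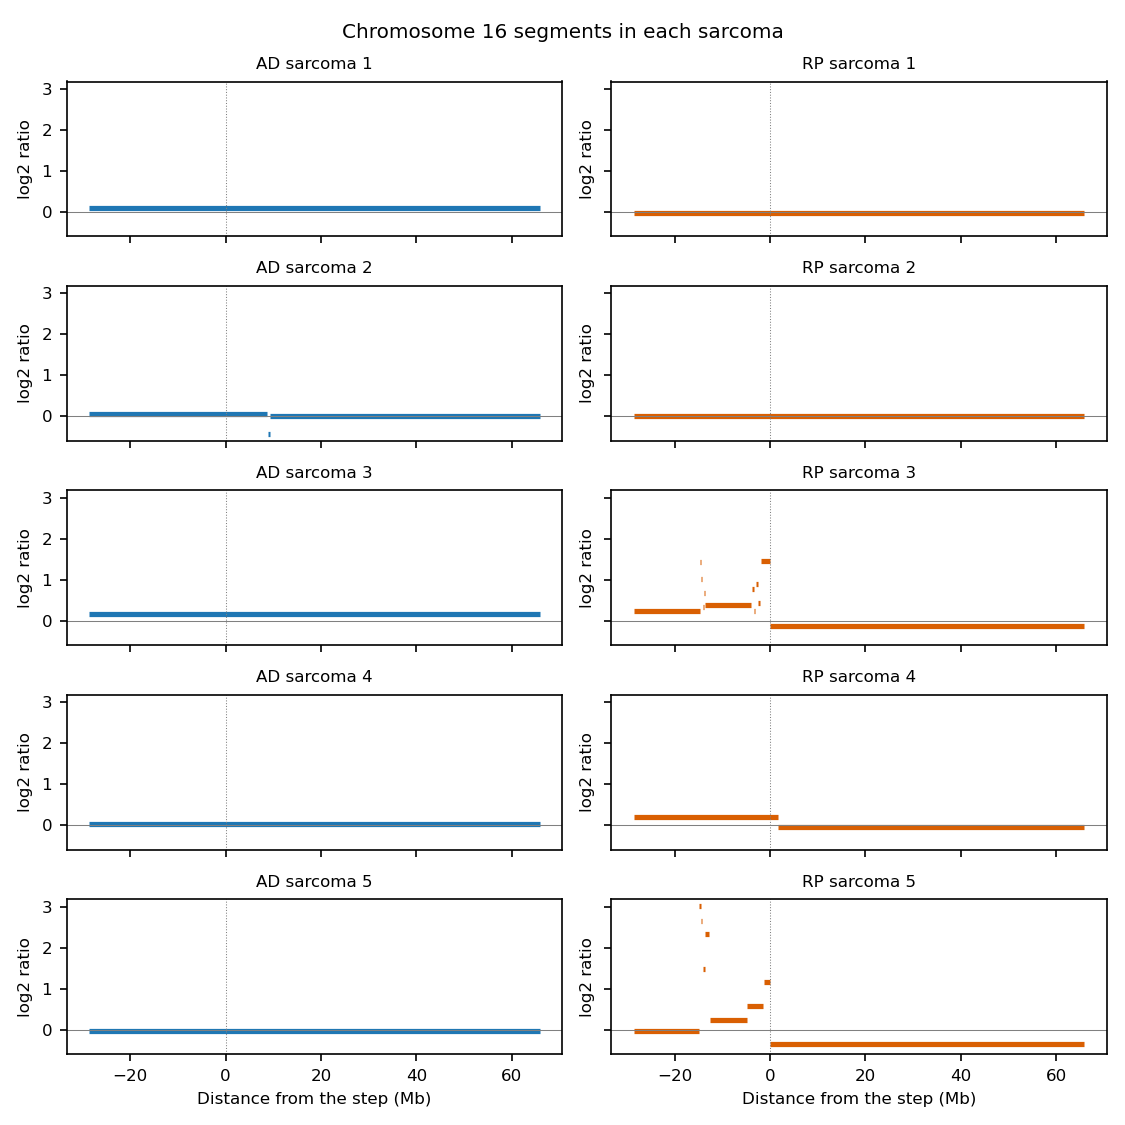
Segments of chromosome 16 in each sarcoma, AD in the left column and RP in the right, as log2 copy ratio against distance in Mb from the end of the Pak2 gain of RP sarcomas 3 and 5. RP sarcomas 3 and 5 have gains of up to 1.47 and 3.01 before the step and stand at -0.13 and -0.36 after it, RP sarcoma 4 has a low step near the same place, and the other 7 are flat or nearly so.

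RP sarcomas 1 and 4 had shorter high gains. Both had Pira2, a gene of the paired immunoglobulin-like receptor family, and Gm14548 as their highest, at 1.71 and 1.88 over 5 markers. Their second highest was a stretch of chromosome 14 with no gene, at 1.48 and 1.21. Next came the chromosome 9 stretch at 1.13 in RP sarcoma 1, and Rpl8, a ribosomal protein gene, at 0.93 in RP sarcoma 4. RP sarcoma 2 also had Rpl8 at 0.98. Members of multigene families can share reads with near-identical copies, so values at Pira2, the histocompatibility genes and the zinc finger and pheromone receptor clusters are uncertain.

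**Figure D4:**
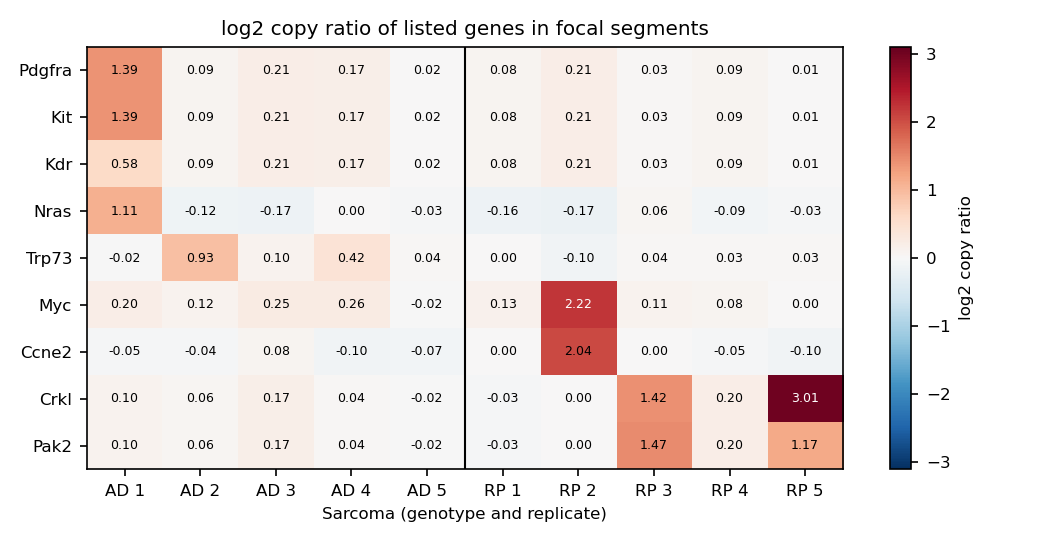
Mean log2 copy ratio of 9 listed genes that lie in a focal segment of at least 1 sarcoma, in each of the 10 tumours, AD left and RP right of the black line. Each gene is high in 1 or 2 tumours, and the highest cell is Crkl in RP 5 at 3.01.

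Most other focal segments recurred across tumours. Of 54 regions with a focal segment, 29 were found in 1 sarcoma, 8 in 2 and 17 in 3 or more. The 17 were at most 1.46 Mb long, and 12 of them overlapped a focal segment of a thymic lymphoma. AD sarcoma 5 had a focal segment in 2 of the 17 and RP sarcoma 3 in 3, while the other 8 sarcomas had one in 6 to 13. Germline differences from the comparison DNA and changes of the tumour cannot be told apart here. The stretches with no gene on chromosomes 2 and 9, chr2:98662236-98667232 and chr9:3000921-3038191, were gained in 9 sarcomas each, and RP sarcoma 5 stood at -0.02 in both. On chromosome 14 a stretch of 3.01 kb with no gene, chr14:19415856-19418864, was gained in AD sarcomas 1 and 2 and RP sarcomas 1 to 4, and the gain reached Gm2244 in AD sarcomas 3 and 4 and Gm2237 in AD sarcoma 3. Whether values at the stretches with no gene are changes of copy number was not tested.

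Several recurring regions were found in both genotypes. Rfc1, the large subunit of the clamp loader of DNA replication, had a stretch lost in AD sarcomas 1, 2 and 4 and RP sarcomas 2, 4 and 5, at -0.58 to -0.91. A pheromone receptor cluster of chromosome 7, with Vmn1r107 and its neighbours, was lost in AD sarcomas 2, 3 and 4 and RP sarcomas 1, 2 and 4, at -1.12 to -1.42. Crx, a photoreceptor transcription factor gene, or its neighbour Crxos was gained in AD sarcomas 2, 3 and 4 and RP sarcomas 1 and 2. On chromosome 17 H2-Q6 and H2-Q7, and H2-T3, were gained in AD sarcomas 1 and 3 and RP sarcoma 2, and Esp38 was lost in the same tumours. The gain at H2-T3 reached Rpp21 in AD sarcomas 1 and 3 but not in RP sarcoma 2. Of the 17 regions, 3 were gained in one genotype and lost in the other. Gm19428 on chromosome 13 was gained in AD sarcomas 1, 3 and 4 and lost in RP sarcomas 2 and 5. The gene models just beyond it, Gm53057 and others, had the opposite signs in the same 5 tumours. Sfxn1, a mitochondrial serine transporter gene, was lost in AD sarcomas 2 and 3 at -0.88 and -0.81 and gained in RP sarcoma 2 at 0.66.

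Regions found in 1 genotype were 2 in AD and 3 in RP sarcomas. Whether both genotypes had the same comparison DNA is not given, so genotype and comparison DNA cannot be told apart in these regions. The zinc finger cluster at chr2:176706853-178032800, with Zfp970, Zfp972 and Zfp971, stood at 1.04, 0.89, 1.13, 1.15 and 0.01 in AD sarcomas 1 to 5 and between -0.07 and 0.0034 in RP sarcomas. Its highest value in a thymic lymphoma was 0.24. A stretch of gene models on chromosome 14, with Gm8126, stood at 0.92, 0.83 and 0.90 in AD sarcomas 1, 3 and 4 and at -0.43 in RP sarcoma 2. Rab3ip, which encodes an activator of the GTPase Rab8, had a stretch lost in RP sarcomas 1, 4 and 5 at -0.83, -0.88 and -0.85 and stood between -0.20 and 0.0029 in AD sarcomas. On chromosome 19, Fgfbp3 and Btaf1, and Ide with the mitotic kinesin gene Kif11, were lost in the same 3 RP tumours. Fgfbp3 and Btaf1 stood at -0.56, -0.80 and -0.58 there, and at 0.46 and 0.37 in AD sarcomas 1 and 2. In thymic lymphomas the Gm8126 stretch ran from -0.54 to 0.73 and the Rab3ip stretch from -0.33 to 0.49. Both chromosome 19 regions ran from -0.66 to -0.06 in lymphomas, so values of this size there are not particular to RP sarcomas. The test of these differences over the whole table is given next.

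**Figure D5:**
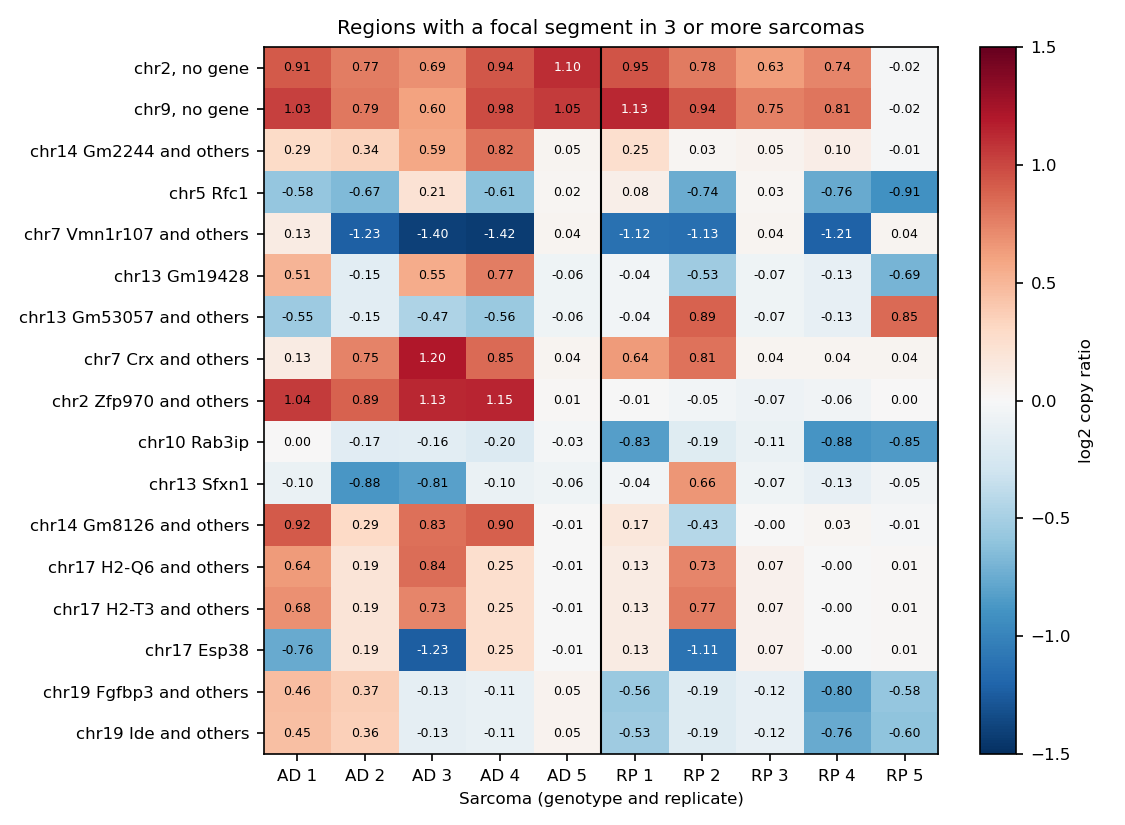
Mean log2 copy ratio of the 17 regions with a focal segment in 3 or more sarcomas (vertical, named by chromosome and a gene inside) in each of the 10 tumours (horizontal). The chromosome 2 region with Zfp970 is high in AD 1 to AD 4 and near 0 in the other 6, and Rab3ip is low in RP 1, RP 4 and RP 5. AD 5 and RP 3 are near 0 in most rows.

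Over 2409 bins of 1 Mb, 148 (6.14%) had an unadjusted p under 0.05 in the exact permutation test and 0 (0%) passed after adjustment. The smallest adjusted p was 0.579, and 383 bins would have had to reach the smallest possible p for any to pass. limma gave 351 bins with an unadjusted p under 0.05 and 0 that passed (smallest adjusted p = 0.073). The groups did not overlap in 2 bins (0.083%), chr2:176000001-178000000, the zinc finger cluster, where AD sarcomas were at 0.84 ± 0.48 and RP sarcomas at -0.04 ± 0.03 (SD, n = 5 each). AD sarcoma 5 was above the RP tumours there by less than 0.01. Passing over bins next to one already named, the next largest differences were negative, at the bins that start at 17000001 (-0.55), 31000001 (-0.49) and 19000001 (-0.30) on chromosome 16 and 61000001 on chromosome 15 (-0.34). They cover the high gains of RP sarcomas 2, 3 and 5 at Crkl, at Pak2, beyond Hira and at Myc, and their p was 0.262 on chromosome 16 and 0.881 on chromosome 15 (exact permutation test).

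Over 20665 autosomal protein-coding genes, 1038 (5.02%) were higher in AD sarcomas at an unadjusted p under 0.05 and 9 (0.0436%) were lower. After adjustment 0 (0%) passed (exact permutation test, smallest adjusted p = 0.557), where 3281 genes would have had to reach the smallest possible p for any to pass. limma gave 2867 at an unadjusted p under 0.05 and 0 after adjustment. Genes on one segment share one value, so the 1038 genes held 32 different sets of 10 values. Of them, 368 were on chromosome 16, 364 on chromosome 5, 233 on chromosome 17, 48 on chromosome 14 and 21 on chromosome 2. All 368 on chromosome 16 began beyond the step, in the part below 0 in RP sarcomas 3, 4 and 5. The 9 lower genes were on chromosomes 13 (6), 18 (2) and 1 (1).

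Genes of 9 lists, from the p53 pathway to connective tissue, were read from the same fit. Of 164 listed genes, 10 were higher in AD sarcomas at an unadjusted p under 0.05 and 0 lower, against the 5.02% and 0.0436% of all genes, and 0 passed after adjustment. The median difference was 0.004 over the listed genes and 0.012 over all genes. From the p53 pathway, 2 of 28 genes were among the 10. Cdkn1a, the cell cycle inhibitor p21 and a direct p53 target, stood at 0.17, 0.19, 0.19, 0.25 and 0.08 in AD sarcomas and at 0.13, 0.10, 0.07, -0.0047 and 0.01 in RP sarcomas. AD sarcomas 1 to 4 were above every RP tumour and AD sarcoma 5 was not (difference 0.117, exact permutation p = 0.024, adjusted p = 0.557). Daxx, a histone chaperone gene on the same stretch of chromosome 17, had the same values. Tnfrsf10b, a death receptor gene and p53 target on chromosome 14, had a difference of 0.149 (exact permutation p = 0.048, adjusted p = 0.557).

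Of 30 genes of lipid and energy metabolism, 4 (13.3%) were among the 10, against 5.02% of all genes. All 4 lie on chromosome 5, where 364 of all 1269 genes were called in the same direction, so they restate the values of that chromosome. They were Ppargc1a, a coactivator of mitochondrial genes, Hadha and Hadhb, the subunits of the mitochondrial trifunctional protein, and the fatty acid transporter gene Cd36. Hadha and Hadhb shared 1 value per tumour, 0.21, 0.13, 0.21, 0.21 and 0.02 in AD sarcomas and 0.08, 0.08, 0.03, 0.05 and -0.03 in RP sarcomas. AD sarcomas 1 to 4 were above every RP tumour. Fgfr3, a fibroblast growth factor receptor gene, had the same values, and Cdk6, a cell cycle kinase gene, lies on the same chromosome. The tenth was Vgll3 on distal chromosome 16. All 10 had an adjusted p of 0.557 (exact permutation test). In the lists for PI3 kinase, genome maintenance and connective tissue and muscle, 0 of 11, 0 of 14 and 0 of 11 genes were among them. With 5.02% of all genes called, lists this short can hold 0 without differing from the rest.

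At the level of 0.3, 29 of the 164 listed genes were gained in at least 1 sarcoma and 5 were lost, against 2969 and 1243 of all 20665. AD sarcoma 3 alone had 19 of the listed genes gained and 4 lost, beside 2561 (12.4%) and 722 (3.49%) of all genes in that tumour. Its gained genes included the cell death genes Bax (0.38) and Bbc3 (0.41) and the cyclin gene Ccnd1 (0.35) on chromosome 7, and its lost genes Akt1 (-0.32), Mycn (-0.31), Lpin1 (-0.31) and Twist1 (-0.31) on chromosome 12. Receptor kinase and Ras signalling had the most gained genes, 10 of 27, and 0 lost. That list was written with earlier results of these data known and holds Kit, Pdgfra, Kdr, Nras, Crkl and Pak2. Its rank among the lists is therefore not a result about the pathway. AD sarcoma 5 and RP sarcomas 1 and 4 had 0 listed genes gained and 0 lost. Some other regulators were picked after their values were seen. Over the 10 tumours Mdm2, the ubiquitin ligase of p53, and Cdk4, on the same segments, ran from -0.20 to 0.02, Cdkn2a from -0.10 to 0.10, Rb1 from -0.06 to 0.29, and Yap1 and Met were between -0.16 and 0.01.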

How the data were processed

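Exome libraries of 24 tumours and 4 ears were read at 150 nt; the 10 sarcomas are analysed here, and the ears were not analysed. The authors deposited 1 table of segments per tumour, whose segment mean is read as a log2 copy ratio; the base is the usual one and is not written in the files. The deposited marker number is a count of measured units, not of reads. The build is GRCm38, per the submitters' processing notes, which also list GATK 4.1.0.0, BWA 0.7.17 and Trim Galore 0.6.5 with no role. The sources used here do not give the comparison DNA, the segmentation settings or the centring. Tables of 2 tumours were identical in 0 cases.

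From these values, means per autosome, bin and gene were weighted by length (Python 3.11.15, numpy 2.4.6, pandas 2.3.3, scipy 1.17.1), with genes from RefSeq GRCm38.p6. All tests are two-sided exact permutation tests of means, with Benjamini-Hochberg adjustment over all autosomes, bins or genes at 0.05; limma 3.58.1 in R 4.3.3 was an alternative. Others were the levels, centring on the median, marker weights, short segments left out and each tumour left out. Scripts were tested on simulated data. Each tumour is 1 replicate, numbered in label order; p-values measure the spread between tumours. Named genes are listed genes in a focal segment, genes of the 3 highest gains and 3 lowest losses of each tumour, regions in 3 or more sarcomas, the 4 largest autosomes by mean and by difference, and the 5 largest bins that are not neighbours; Trp53, genes of the unadjusted calls and known sarcoma regulators were added after their values were seen. Members and lists were chosen with earlier results of these data known.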

Additional observations from a re-analysis of the deposited data

Results flagged for a closer look

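Among groups of 5 sarcomas, a tumour was set apart where its gap to the nearest other exceeded 0.71 of the group's range; 4 of 52 groups had such a tumour, and chance gives about 1 in 20. The altered share of AD sarcoma 3, 12.24%, stood above the other AD sarcomas, which ran from 0.0117% to 1.04%. Chromosome 6 of the same tumour, at -0.1594, stood below the others (-0.03 to -0.0020). Chromosome 7 of RP sarcoma 2, at 0.2098, stood above the other RP sarcomas (-0.01 to 0.02), and chromosome 14 of RP sarcoma 1, at 0.154, above the other RP sarcomas (-0.02 to 0.03).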

How the results depend on the processing

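Of 156 alternative values, 12 turned direction, 4 passed the exact permutation test where the value reported did not, and 140 did neither. All 4 left out AD sarcoma 5. Some alternatives could change little or nothing. Joining neighbouring segments within 0.1 left the segment counts as they were, since no step was under 0.238. The 140 include those of focal gains, whose reported difference of 0 has no direction, and focal losses at a level of 1, where the difference was 0; 0 autosomes, bins and genes passed under any, limma and each tumour left out included. With 1 tumour left out, the AD minus RP difference ran from -0.723 to 2.33 points for the altered share (lowest without AD sarcoma 3), 3.1 to 6.85 for shifted autosomes, 0.027 to 0.060 for the mean absolute shift (both highest without AD sarcoma 5), -2.05 to 1.95 for focal gains, -1.6 to 0.25 for focal losses (above 0 without AD sarcoma 5 or RP sarcoma 4) and -2 to 13.2 for segments (below 0 without AD sarcoma 1 or 2 or RP sarcoma 1 or 4). For the profile distance it ran from -0.0015 without RP sarcoma 5 to 0.0216 without AD sarcoma 5. Shifted autosomes differed by 6.75 without both tumours with a sequenced ear, an alternative added after seeing the data. The mean absolute shift differed by 0.057 there and did not pass (exact permutation p = 0.0857). Focal losses differed by 1.6 at a level of 0.3, by 0.6 relative to the autosome mean and by 0.4 without segments shared with another tumour. With 1 minus r as distance the profile difference was -0.0197. The cause of these changes was not tested. No paired analysis was possible because replicate numbers follow label order and pair no animals. Read depth and tumour purity are unknown, and 5 tumours a group limit the precision.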
